A study of Mus musculus with 12 samples.

Results

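The butyrophilin genes Btn1a1 and Btn2a2 lie next to each other on mouse chromosome 13 and were followed together through 12 pools of oocytes spanning the pubertal transition. They are 2 of the 24562 genes in the count table. The pair was chosen by its measured levels, high at PND 16 and low at PND 13, so their own differences between cohorts are given below as a description, without p-values. The genes around the pair were then examined for raised levels at PND 16.

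Butyrophilins are membrane proteins of the immunoglobulin superfamily, related to the B7 ligands that stimulate or restrain T cells. Most carry immunoglobulin-like domains outside the cell and a B30.2 domain inside it. Btn1a1 is best known from the lactating mammary gland, where it is a major protein of the milk fat globule membrane and binds xanthine dehydrogenase/oxidase, the product of Xdh, during the release of fat droplets that are coated with perilipin 2 (Plin2). Btn2a2 is found on antigen-presenting and other cells and restrains T cell activation.

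Oocytes were taken from the antral follicles of CD-1 mice, an outbred strain, without gonadotropin stimulation, and were collected in medium with milrinone, which holds meiosis arrested. The mice were of postnatal day (PND) 13, 16 or 40, and those of PND 16 were divided by body weight into a small and a large cohort, which gives 4 cohorts. Each had n = 3 pools of 18 to 45 oocytes. A library is thus an average over the oocytes of a pool, in which fewer oocytes with a transcript and less of it in each oocyte cannot be told apart. Depth was similar across pools, with total counts between 17671193 and 27418358. Levels are given as CPM, the count of a gene relative to the pool's total count after TMM scaling in edgeR, with mean ± SD for the 3 pools of a cohort.

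The labelled cell type was checked against its markers. All 10 oocyte markers were detected, among them the zona pellucida genes Zp1, Zp2 and Zp3, and their summed level lay between 1.42e+04 and 1.73e+04 CPM in the 12 pools. Cumulus cells had been removed by pipetting, and the 10 markers of granulosa and cumulus cells were still detected, and their summed level was 129 to 528 CPM at PND 13, 186 to 498 in PND 16 small, 190 to 204 in PND 16 large and 153 to 170 at PND 40. The 8 theca and stroma markers summed to between 5.14 and 36.3 CPM and the 7 immune markers to between 0.367 and 2.84 CPM. Of 7 markers of mammary epithelium, the casein genes Csn1s2a, Csn2 and Csn3 and the whey gene Wap had no count in any pool, and all 7 together summed to between 0.34 and 3.26 CPM.

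In the GENCODE M21 annotation of GRCm38 (mm10), Btn1a1 (gene ID 12231, ENSMUSG00000000706.16) spans chr13:23456992-23465901 on the minus strand, with 3 transcripts of up to 8 exons. Btn2a2 (gene ID 238555, ENSMUSG00000053216.15) spans chr13:23477676-23488857 on the same strand, with 4 transcripts of up to 10 exons. The genes are 11774 bases apart and no other gene of the count table lies between them. None of the 50-base windows along the transcripts of Btn1a1 (0 of 4069) or of Btn2a2 (0 of 2511) occurred in a transcript of another gene, so reads of this length could be told apart between the pair. RefSeq places a lncRNA, Gm52036 (chr13:23464424-23465488), and a tRNA, n-TEttc5, within Btn1a1. Neither was in the count table.

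Of the pair, 1 gene matched the RefSeq promoter table, Btn2a2, and its promoter is shown because both genes moved together. The 250 bases before its start are chr13:23488858-23489107 of GRCm38.p6, read on the minus strand. Capitals mark CCAAT on either strand.
Btn2a2: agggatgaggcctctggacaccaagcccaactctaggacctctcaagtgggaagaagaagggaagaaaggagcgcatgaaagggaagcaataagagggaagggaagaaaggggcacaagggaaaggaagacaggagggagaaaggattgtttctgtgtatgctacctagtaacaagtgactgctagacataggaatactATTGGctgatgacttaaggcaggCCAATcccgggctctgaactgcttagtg
CCAAT was found at 2 places, starting 51 and 28 bases before the start, and 37.4% of 32544 promoters of 250 bases before and 50 bases after the start held it on either strand. The E-box letters CANNTG were found at 2 places and in 72.3% of promoters. TATAAA, found in 13.6% of promoters, and TAATTG, found in 8.01%, had no match in this window. These matches describe letters only, and no binding was measured.

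Btn1a1 was almost absent at PND 13, abundant in both cohorts of PND 16 and uneven at PND 40. At PND 13 the pools held 13, 1 and 27 counts of Btn1a1, which are 0.621, 0.0391 and 1.11 CPM. In PND 16 small they held 2238, 2541 and 1860 counts, or 109, 120 and 110 CPM. In PND 16 large they held 5431, 3114 and 4286 counts, or 222, 123 and 171 CPM. Every pool of PND 16 was thus above every pool of PND 13, and the lowest pool of PND 16 large was only just above the highest of PND 16 small. At PND 40 the pools held 6, 1342 and 43 counts of Btn1a1, or 0.257, 53.4 and 1.58 CPM. Pool 2 of PND 40 stood far above the other pools of its cohort, while pool 1 fell within the range of PND 13 and pool 3 just above it.

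Btn2a2 followed the same order over a narrower range. At PND 13 the pools held 94, 57 and 84 counts of Btn2a2, which are 4.49, 2.23 and 3.44 CPM. In PND 16 small they held 219, 355 and 161 counts, or 10.6, 16.8 and 9.55 CPM. In PND 16 large they held 444, 330 and 458 counts, or 18.2, 13 and 18.2 CPM. The cohorts of PND 16 overlapped with each other, and neither overlapped with PND 13. At PND 40 the pools held 74, 188 and 118 counts of Btn2a2, or 3.17, 7.49 and 4.34 CPM. Pool 2 of PND 40 was again the highest of its cohort, and the other pools of PND 40 lay within the range of PND 13.

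**Figure D1:**
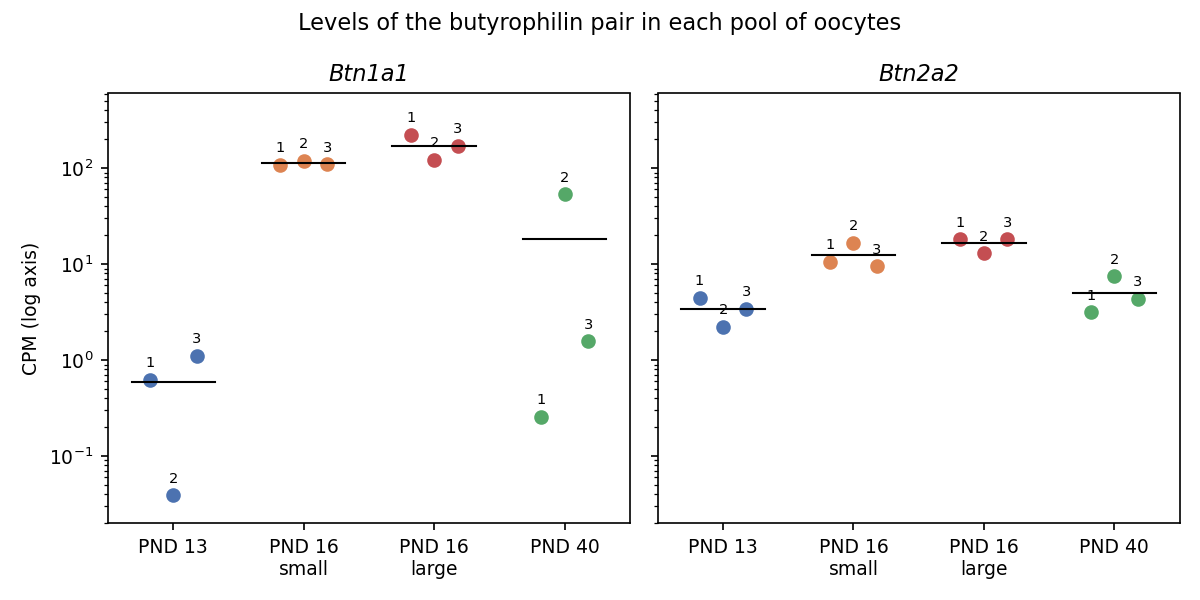
Level of Btn1a1 (left) and Btn2a2 (right) in CPM, on a log axis, in each of the 12 pools. Points are pools with their replicate number and lines are cohort means. All 6 pools of PND 16 are above the 6 others for both genes, and pool 2 of PND 40 is the highest of its cohort for both, at 53.4 CPM for Btn1a1 and 7.49 CPM for Btn2a2.

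As cohort means, Btn1a1 was at 0.588 ± 0.534 CPM at PND 13, 18.4 ± 30.3 CPM at PND 40, 113 ± 6.35 CPM in PND 16 small and 172 ± 49.7 CPM in PND 16 large (SD, n = 3). Btn2a2 was at 3.39 ± 1.13, 5 ± 2.23, 12.3 ± 3.92 and 16.5 ± 2.99 CPM in the same order (SD, n = 3). The spread of Btn1a1 over pools differed widely between cohorts, with a coefficient of variation of 5.61% in PND 16 small and 165% at PND 40, where the highest pool was 208 times the lowest. For Btn2a2 the coefficient of variation lay between 18.1% in PND 16 large and 44.6% at PND 40. In the order of the means, PND 13 and PND 40 could not be separated for either gene because their pools overlapped, and the cohorts of PND 16 could not be separated for Btn2a2.

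In PND 16 small vs. PND 13, the log2 fold change was 7.59 (standard error 1.81) for Btn1a1 and 1.87 (standard error 0.344) for Btn2a2. The ratios of the cohort means were 192 and 3.65. In PND 16 large vs. PND 13, the log2 fold change was 8.20 (standard error 1.83) for Btn1a1 and 2.29 (standard error 0.346) for Btn2a2, with ratios of the means of 292 and 4.87. The denominator of the Btn1a1 ratios is at most 27 counts in a pool and 1 count in pool 2 of PND 13, so their size is imprecise. Pools did not overlap in these comparisons for either gene. Of the 13943 genes that passed the filter on low counts, 18.1% had no overlap between PND 16 small and PND 13, and 45.5% had none between PND 16 large and PND 13. Both genes are among those counted, and the comparison with PND 13 was the one that chose them.

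Between the cohorts of PND 16, Btn1a1 had a log2 difference of 0.60 (standard error 1.19), large vs. small, and Btn2a2 one of 0.42 (standard error 0.325). The difference was smaller than its standard error for Btn1a1 and a little larger than it for Btn2a2. These standard errors come from 1 model of all 4 cohorts, so they do not measure the spread of the PND 16 pools alone. For Btn1a1 the coefficient of variation was 5.61% in PND 16 small and 28.9% in PND 16 large. It was 90.7% at PND 13 and 165% at PND 40. The pools of Btn1a1 did not overlap, at 120 CPM for the highest of PND 16 small and 123 CPM for the lowest of PND 16 large, and 31.5% of all genes tested had no overlap in this comparison.

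At PND 40 both genes were below their level at PND 16. In PND 40 vs. PND 16 large, the log2 fold change was -3.22 (standard error 1.31) for Btn1a1 and -1.72 (standard error 0.337) for Btn2a2. In PND 40 vs. PND 16 small it was -2.62 (standard error 1.28) and -1.30 (standard error 0.335). No pool of PND 40 overlapped with a pool of PND 16 for either gene, which was so for 39.3% of genes tested against PND 16 large and 43.9% against PND 16 small. In PND 40 vs. PND 13 the log2 fold change was 4.98 (standard error 1.79) for Btn1a1 and 0.57 (standard error 0.341) for Btn2a2, with overlapping pools, while 50.8% of genes tested had no overlap.

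These values for Btn1a1 rested on pool 2 of PND 40. Without it, the log2 fold change of Btn1a1 was 0.72 in PND 40 vs. PND 13, -6.88 in PND 40 vs. PND 16 small and -7.49 in PND 40 vs. PND 16 large. For Btn2a2, leaving out any 1 pool kept the log2 fold change of PND 40 between -1.71 and -1.02 vs. PND 16 small and between -2.13 and -1.48 vs. PND 16 large.

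Pool 2 of PND 40 was next compared with the other pools of its cohort on a scale on which the mean log2 CPM of a gene at PND 13 is 0 and that of PND 16 large is 1. On this scale Btn1a1 was at -0.05, 0.81 and 0.22 in pools 1, 2 and 3 of PND 40. Btn2a2 was at -0.02, 0.52 and 0.18. Both genes were therefore nearest to their PND 16 level in the same pool. The median over the other 1856 genes called between PND 16 large and PND 13 was 0.985, 0.949 and 0.915 in these pools. The granulosa and cumulus markers summed to 159, 170 and 153 CPM in pools 1, 2 and 3 of PND 40, and the oocyte markers to 1.48e+04, 1.49e+04 and 1.42e+04 CPM. Pool 2 was the highest of PND 40 for both sums and for the pair. At PND 13 the granulosa and cumulus markers summed to 462, 129 and 528 CPM, and pool 2 was the lowest for both genes. In PND 16 small they summed to 186, 498 and 254 CPM, with pool 2 the highest for both genes. In PND 16 large they summed to 190, 201 and 204 CPM, and pool 2 was the lowest for both genes. The pair was low at PND 13, the cohort with the highest sum. The share of a pool's composition in the level of the pair was not tested.

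The balance between the genes also turned. Per kilobase of exon (4119 bases for Btn1a1 and 2370 for Btn2a2), the level of Btn1a1 was 0.143 ± 0.130 CPM per kb at PND 13 and that of Btn2a2 was 1.43 ± 0.478 (SD, n = 3). Levels in PND 16 large were 41.7 ± 12.1 and 6.95 ± 1.26 CPM per kb, and in PND 16 small 27.5 ± 1.54 and 5.21 ± 1.66 (SD, n = 3). The ratio of Btn1a1 to Btn2a2 per kb was 0.0796, 0.0101 and 0.185 in the pools of PND 13, so Btn2a2 was the more abundant transcript there. It was 5.88, 4.12 and 6.65 in PND 16 small and 7.04, 5.43 and 5.38 in PND 16 large, where Btn1a1 was the more abundant in every pool. At PND 40 it was 0.0467, 4.11 and 0.21, so pool 2 had the balance of PND 16 and pools 1 and 3 that of PND 13.

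**Figure D2:**
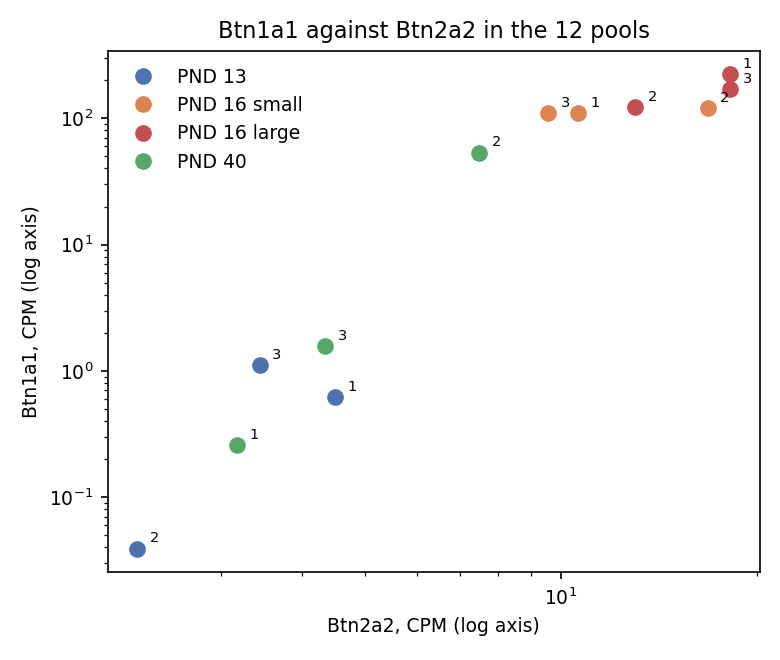
Btn1a1 (vertical) against Btn2a2 (horizontal) in CPM, both on log axes, with 1 point per pool and its replicate number. Pools of PND 13 and pools 1 and 3 of PND 40 sit at the lower left, the 6 pools of PND 16 at the upper right and pool 2 of PND 40 between them.

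A level higher in every pool of PND 16 than in every other pool was uncommon among the genes tested. All 6 pools of PND 16 were above the 6 other pools for 192 genes, 1.38% of those tested, and below them for 139. In 12 genes, 0.0861% of those tested, the lower of the PND 16 means was also at least 1.5 times the higher of the means at PND 13 and PND 40. Btn1a1 and Btn2a2 were among these 12, with ratios of 6.14 and 2.47. Among the 12631 genes that reached 1 CPM as a mean in some cohort, these ratios ranked 3 and 9. The lowest pool of PND 16 was 2.03 times the highest other pool for Btn1a1 and 1.28 times for Btn2a2. Since the pair was chosen for its level at PND 16, its place among these genes is a description.

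By Pearson's r over all pools, each gene of the pair was the one whose pattern was most like the other's. Over the 12 pools, Pearson's r of log2 CPM between Btn1a1 and Btn2a2 was 0.959 and Spearman's rho was 0.958, the highest r of 11947 genes compared with either. Without the 2 pools farthest from the median r was 0.93, and the first place was lost, since Ccnt1 then had 0.937 with Btn1a1, and Ccnt1 had 0.952 and Dpy19l4 0.957 with Btn2a2. In Spearman's rho, Celf2 had the same 0.958 with Btn2a2. The pools share their cohort and their libraries, and with the cohort means taken out r was 0.804. No rank over all genes is given for this value. Pool 2 of PND 40, high for both genes, is among these points, and the part of the granulosa cells in r was not tested. The pair was chosen by its shared levels in pools that are also among them. A high r between its genes is thus partly built in, and the first place is a description.

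The next gene in both orders was Ccnt1, which encodes cyclin T1, a subunit of the elongation factor P-TEFb, with r of 0.933 with Btn1a1 and 0.95 with Btn2a2. Ccnt1 was at 55.2 ± 3.73 CPM at PND 13, 75.8 ± 1.81 in PND 16 small, 78.9 ± 1.24 in PND 16 large and 58.4 ± 5.37 at PND 40 (SD, n = 3), so its range was far narrower. Btn1a1 was followed further by Nup214, a nuclear pore gene (r = 0.886), Dpy19l4 (0.88) and Pdcd6ip, which encodes the ESCRT-associated protein ALIX (0.879). Btn2a2 was followed by Celf2, an RNA-binding protein gene (r = 0.937), the cell adhesion gene Cadm1 (0.929) and Dpy19l4 (0.919). With the cohort means taken out, r with Btn1a1 was 0.633 for Ccnt1, 0.21 for Nup214, 0.286 for Dpy19l4 and 0.522 for Pdcd6ip. With Btn2a2 it was 0.633 for Ccnt1, 0.571 for Celf2, 0.59 for Cadm1 and 0.511 for Dpy19l4. Cohort means lay between 919 and 1.18e+03 CPM for Nup214 and between 167 and 198 CPM for Pdcd6ip, narrow ranges beside Btn1a1. These genes were named by a fixed number of 5 for each of the pair.

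No surrounding gene was counted as raised at PND 16, though most were too low to be counted. The 25 genes of the count table on each side of the pair, 50 in all, are mainly vomeronasal receptor genes and a few zinc finger and RNA genes at lower coordinates, and replication-dependent histone genes of the Hist1 cluster at higher coordinates. A neighbour was counted as raised if its mean in both cohorts of PND 16 was at least 1.5 times that at PND 13 and reached 1 CPM. None of the 50 was. Of the 17 neighbours that were tested and had a mean of at least 1 CPM in some cohort, the ratio to PND 13 lay between 0.388 and 1.28 in PND 16 small and between 0.199 and 1.37 in PND 16 large. The neighbours nearest to the limit were Hist1h3e in PND 16 small (1.28) and Hist1h3g in PND 16 large (1.37).

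On the lower side, the nearest gene, the lncRNA gene C230035I16Rik, lies 26 kb away and reached only 0.109 CPM in any cohort. Beyond it, at 33.1 kb, Abt1, a gene of basal transcription and ribosome biogenesis, was at 23.8 ± 2.05 CPM at PND 13, 23.6 ± 4.63 in PND 16 small, 20.0 ± 1.52 in PND 16 large and 17.7 ± 1.04 at PND 40 (SD, n = 3). The zinc finger gene Zfp322a, 87.8 kb away, was at 43.2 ± 2.26, 43.7 ± 4.08, 37.8 ± 1.53 and 42.8 ± 1.72 CPM in the same cohorts. The nearest gene on the higher side, the histone H4 gene Hist1h4h at 42.2 kb, was at 2.72 ± 0.463, 2.28 ± 0.51, 1.29 ± 0.562 and 2.38 ± 0.798 CPM. None of these was called in any of the 6 comparisons by the criteria given below.

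**Figure D3:**
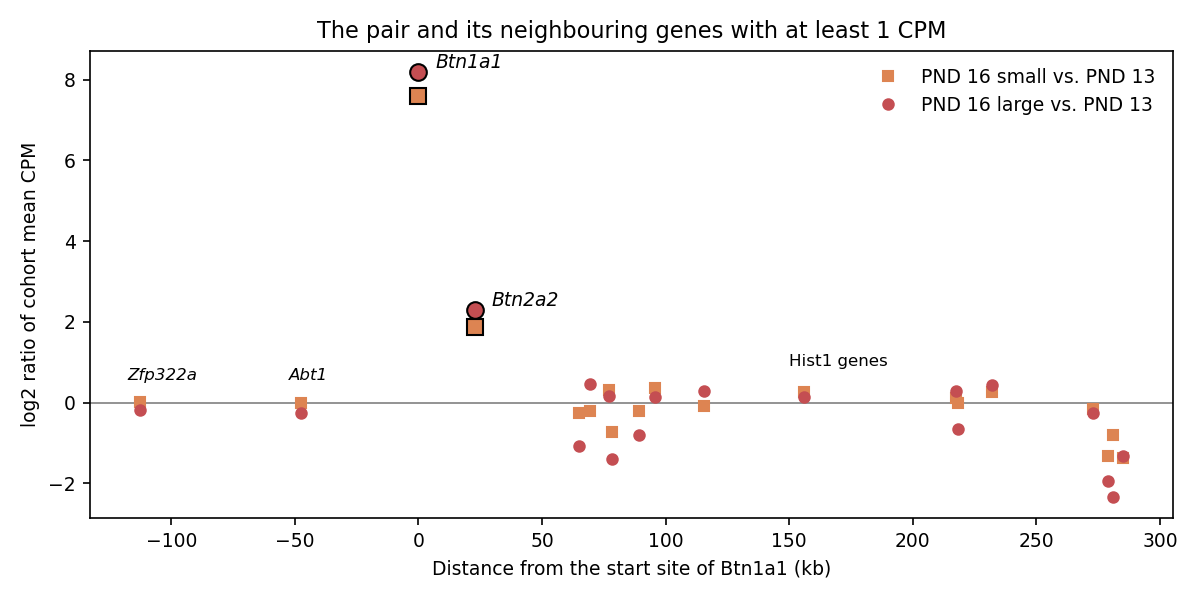
Log2 ratio of the cohort mean CPM at PND 16 small (squares) and PND 16 large (circles) over PND 13, for the pair (outlined) and the 17 neighbours with at least 1 CPM, against distance from the start of Btn1a1 in kb, with higher coordinates to the right. The pair stands above 1.5 on this axis, and every neighbour is below 0.5.

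Of the 50 neighbours, 24 passed the filter on low counts and were tested with edgeR's quasi-likelihood test, with adjustment over all 13943 genes. A call needed a change of 1.5-fold or more with an adjusted p no higher than 0.05. In PND 16 small vs. PND 13, where 0.373% of all genes tested were called, edgeR called 0 of the 24, DESeq2 and limma called 0, and 2 had an unadjusted p under 0.05. Against PND 13, PND 16 large had 13.3% of all genes called and 9.8% called lower, and 1 of the 24 neighbours was called, lower. The median log2 fold change of the 24 was -0.21 and -0.68 in these comparisons, beside -0.03 and -0.04 over all genes tested. The called neighbour was Hist1h2bc, a histone H2B gene, at 9.99 ± 1.30 CPM at PND 13 and 6.32 ± 0.445 in PND 16 large (log2 fold change -0.66, standard error 0.211, adjusted p = 0.0351, edgeR). When 1 pool of these cohorts was left out, the call was lost in 5 of 6 fits.

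At PND 40, 3 neighbours were lower than at PND 13, a comparison in which 18.9% of all genes were called, 12.6% lower and 6.31% higher, and none of the 24 was higher. They were the histone genes Hist1h3e, Hist1h3c and Hist1h2bg. Hist1h3c (log2 fold change -2.63, adjusted p = 0.0223) and Hist1h2bg (-3.23, adjusted p = 0.0475) were at 1.33 and 0.93 CPM at PND 13 and lost their calls in 4 and 5 of the 6 fits without 1 pool of these cohorts. In the pools of PND 13, Hist1h3c was at 2.01, 0.586 and 1.39 CPM and Hist1h2bg at 1.29, 0.313 and 1.19 CPM, beside sums of the granulosa and cumulus markers of 462, 129 and 528 CPM. These sums were lowest at PND 40 as a cohort, at 153 to 170 CPM. Nr5a2, a large part of the sum, was at 87.9 to 146 CPM at PND 13 and 88.2 to 92.7 CPM at PND 40. The lowest pools of Foxl2, Amh, Inha and Gja1 were at 0.391, 1.02, 2.34 and 1.37 CPM at PND 13. At PND 40 their lowest pools were higher, at 1.73, 3.69, 11.4 and 13.6 CPM, while Fshr and Kitl went the other way. Both histone genes were lowest in the pool of PND 13 with the lowest sum. Without that pool, pool 2, 7 neighbours were called in PND 40 vs. PND 13, and the part of the granulosa cells in these values was not tested. Hist1h3e was the 1 neighbour with all 6 pools of PND 16 above the 6 others, the pattern that 1.38% of all genes showed. Its pools lay between 13.1 and 14.7 CPM at PND 13, between 16.4 and 20.4 in PND 16 small, between 15.0 and 16.2 in PND 16 large and between 7.97 and 9.44 at PND 40. Hist1h3e fell at PND 40 vs. PND 13 (log2 fold change -0.69, adjusted p = 0.00185), vs. PND 16 small (-1.05, adjusted p = 0.00016) and vs. PND 16 large (-0.85, adjusted p = 0.00365), and it kept these calls in each of the 12 fits without 1 pool. It was the 1 neighbour called in the latter comparisons, in which 17.2% of all genes were called vs. PND 16 small (10.3% lower and 6.89% higher) and 3.66% vs. PND 16 large (1.32% lower and 2.34% higher). Between the cohorts of PND 16, where 6.19% of all genes were called and 4.76% were lower in the large cohort, 0 of the 24 neighbours was called by edgeR, 1 by DESeq2 and 0 by limma, with 1 at an unadjusted p under 0.05. Histone genes of the cluster are near-identical copies, so how reads were divided between them is uncertain.

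Of 19 vomeronasal receptor genes among the neighbours, 15 had no count in any pool and 1 was tested, Vmn1r212, with at most 0.514 CPM as a cohort mean. Vmn1r211, 604 kb from Btn1a1 and named after its values were seen, did not pass the filter but had counts in all 6 pools of PND 16. It had 6, 5 and 4 counts in PND 16 small and 8, 2 and 9 in PND 16 large. At PND 13 no pool had a count, and at PND 40 pool 2 had 4 and the others none. Its counts were thus found in the pools with most Btn1a1, the 6 of PND 16 and pool 2 of PND 40. They are few, 34 in the pools of PND 16 and 4 in the others, and with no filter on low counts edgeR gave an adjusted p of 0.183 for PND 16 small and 0.0624 for PND 16 large vs. PND 13.

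Most of the butyrophilin family could not be followed in these oocytes. Of 19 other genes of the family (the butyrophilin-like Btnl genes, Ermap, Mog and the Skint genes of skin and thymus), 10 had no count in any pool, 15 had at most 3 counts in each pool, and none passed the filter on low counts. At this depth 3 counts are a level of less than 1 CPM, so changes in these genes were not detectable. Of 8 genes of the related B7 family, 2 were tested, and edgeR called 0 in any comparison, DESeq2 and limma called 0, and 2 had an unadjusted p under 0.05 in some comparison. Among all genes tested 29.1% were called in at least 1 of the 6 comparisons, so 0 of 2 is near the background. Icosl, the ligand of the T cell costimulator ICOS, was at 122 ± 5.78 CPM at PND 13, 97.5 ± 25.3 in PND 16 small, 99.6 ± 4.96 in PND 16 large and 122 ± 4.25 at PND 40 (SD, n = 3), with adjusted p from 0.0847 to 0.981. Cd274, which encodes PD-L1, had at most 0.928 ± 0.16 CPM, at PND 40. Cd276, which encodes B7-H3, had at most 25 counts in a pool and 0, 1 and 0 in those of PND 16 small. It did not pass the filter with all 12 pools, and in 7 of the 12 fits without 1 pool it was called higher at PND 40 than in PND 16 small.

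Genes of the milk fat globule membrane, where Btn1a1 is known to act, were examined next. Of 8 listed genes 5 were tested, and Cidea and Fabp3 had no count in any pool. In PND 16 small vs. PND 13 edgeR, DESeq2 and limma called 0 of the 5, and none had an unadjusted p under 0.05. For PND 16 large vs. PND 13, edgeR and DESeq2 called 0 and limma 1, with 2 at an unadjusted p under 0.05. With 0.373% and 13.3% of all genes called in these comparisons, 0 of 5 is near the background. The median log2 fold change of the 5 was 0.05 and -0.35, beside -0.03 and -0.04 over all genes. Xdh, whose product binds Btn1a1, was variable between pools. It was at 0.525, 16.0 and 0.0819 CPM at PND 13, 67.1, 5.02 and 42.3 CPM in PND 16 small, 23.4, 31.1 and 36.9 CPM in PND 16 large and 1.54, 24.0 and 23.8 CPM at PND 40. The pools of Xdh overlapped between PND 13 and PND 16 small. They did not between PND 13 and PND 16 large, which was so for 45.5% of all genes tested. Its log2 fold change vs. PND 13 was 2.76 (standard error 1.55, adjusted p = 0.383) in PND 16 small and 2.44 (standard error 1.53, adjusted p = 0.283) in PND 16 large, so neither passed the test. Without pool 2 of PND 13, the difference in PND 16 large was 6.68 with an adjusted p of 0.0429.

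Plin2, the droplet coat gene, was at 8.08 ± 0.637 CPM at PND 13, 8.37 ± 1.43 in PND 16 small, 6.33 ± 0.527 in PND 16 large and 5.39 ± 0.347 at PND 40 (SD, n = 3). It was lower at PND 40 than at PND 13 (log2 fold change -0.59, adjusted p = 0.0274) and than in PND 16 small (-0.64, adjusted p = 0.02), and lost these calls in 5 and 3 of the 6 fits without 1 pool of the cohorts compared. Muc15, a membrane mucin gene, was the 1 gene of this list that was called higher in a later cohort. It went from 0.32 ± 0.366 CPM at PND 13 through 0.438 ± 0.115 and 0.938 ± 0.321 in PND 16 small and large to 4.72 ± 1.09 at PND 40. Its log2 fold change was 3.83 in PND 40 vs. PND 13 (adjusted p = 0.000648), 3.41 vs. PND 16 small (adjusted p = 0.00143) and 2.32 vs. PND 16 large (adjusted p = 0.031), and the last call was lost in each of the 6 fits without 1 pool of these cohorts. Cd36, a fatty acid receptor gene, was at 46.0 ± 4.44 CPM in PND 16 large and between 60.3 and 63.6 CPM as a mean in the other cohorts (SD, n = 3). These differences were under 1.5-fold, so Cd36 was not called, with adjusted p of 0.02 vs. PND 13, 0.0265 vs. PND 16 small and 0.0237 vs. PND 40. None of these genes was among the 12 described above.

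Of 13 other lipid droplet genes, 8 were tested and 2 were called, both lower. Plin3, another perilipin gene, was at 50.3 ± 15.7 CPM at PND 13, 48.4 ± 5.86 in PND 16 small, 29.9 ± 2.90 in PND 16 large and 26.5 ± 2.28 at PND 40 (SD, n = 3). Its pools were at 59.9, 32.2 and 58.7 CPM at PND 13 and 42.0, 53.5 and 49.7 CPM in PND 16 small, beside granulosa and cumulus marker sums of 462, 129 and 528 and of 186, 498 and 254 CPM. In both cohorts the pool with the lowest marker sum was also the lowest for Plin3, and the cohort means of both were lowest at PND 40. Across cohorts the order differed, since pool 2 of PND 13 had the lowest sum of all pools. Plin3 was not higher than in that pool in any pool of PND 16 large (26.6 to 32.1 CPM, sums of 190 to 204). The same held at PND 40 (24.1 to 28.6 CPM, sums of 153 to 170). The marker sum hides differences between its markers, as given above for the histone genes. The part of the granulosa cells in the level of Plin3 was not tested. Plin3 fell in PND 16 large vs. PND 13 (log2 fold change -0.75, adjusted p = 0.014) and vs. PND 16 small (-0.69, adjusted p = 0.0361), and in PND 40 vs. PND 13 (-0.92, adjusted p = 0.00326) and vs. PND 16 small (-0.87, adjusted p = 0.0052). The calls at PND 40 were kept in every fit without 1 pool, and those in PND 16 large were lost in 3 and 5 of 6. Dgat1, which makes triacylglycerol, fell from 8.58 ± 0.655 CPM at PND 13 to 4.41 ± 0.989 in PND 16 large (-0.96, adjusted p = 0.00933) and 5.02 ± 0.684 at PND 40 (-0.77, adjusted p = 0.0205), and the latter call was lost without pool 3 of PND 40. Over both lists, 4 of 13 genes tested were called in at least 1 of the 6 comparisons, beside 29.1% of all genes tested. All adjusted p-values here are from edgeR.

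**Figure D4:**
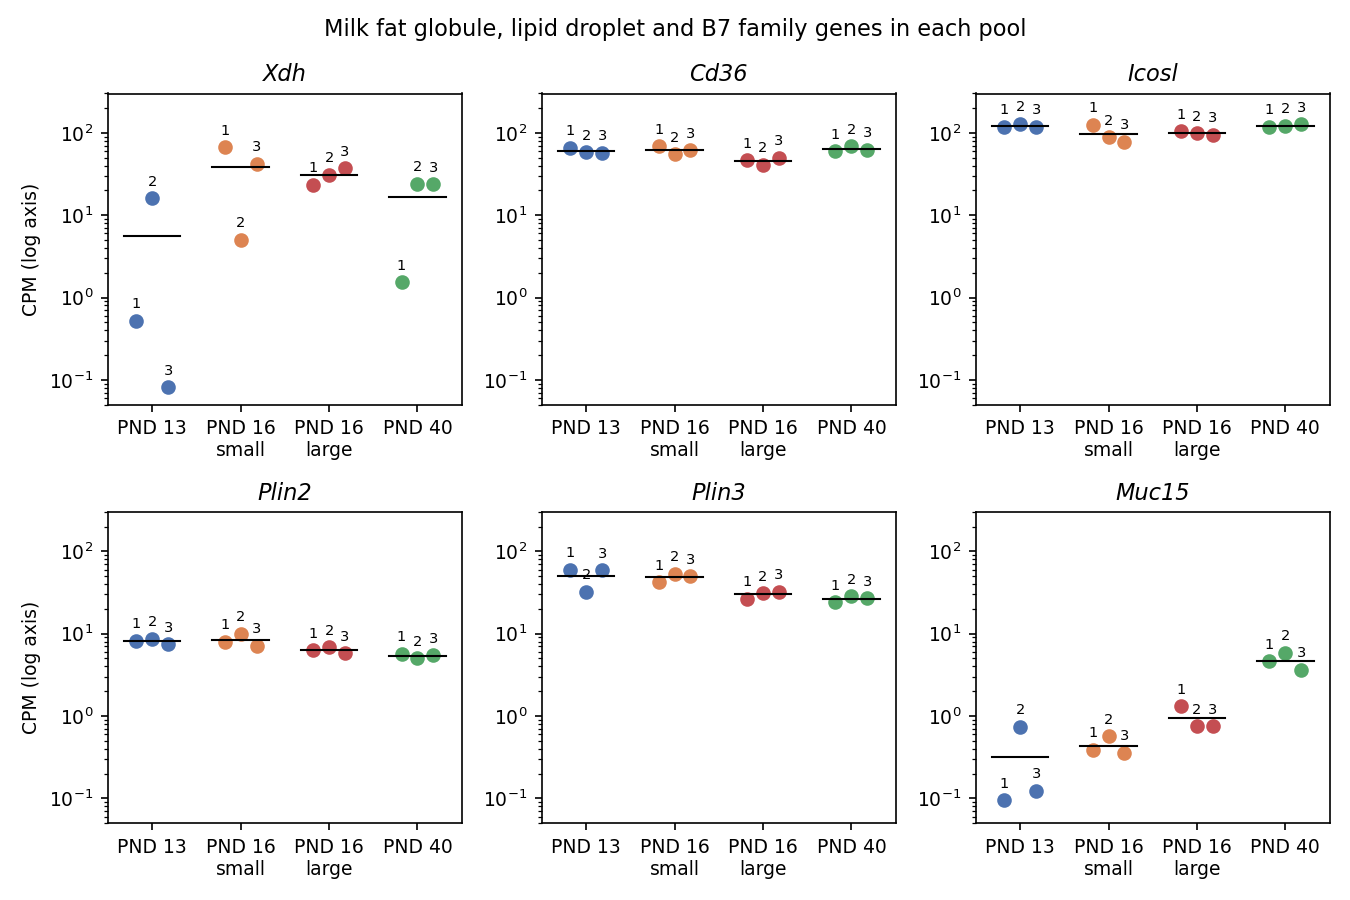
Level in CPM, on a log axis, of 6 genes of the milk fat globule, lipid droplet and B7 lists in each of the 12 pools, with replicate numbers and lines for the cohort means. Xdh spreads over 0.0819 to 16.0 CPM at PND 13 and is between 23.4 and 36.9 CPM in PND 16 large, Muc15 is highest at PND 40, and Plin3 goes from 50.3 CPM at PND 13 to 26.5 CPM at PND 40 as a mean.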

How the data were processed

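RNA-Seq was performed on 12 pools of oocytes, 3 per cohort, with cohorts and replicate numbers taken from the sample labels. The authors deposited raw counts of reads per gene, without normalization, and log2 values, which equal the log2 of each count times a factor of its pool, plus 1. The factor was constant within a pool to 7.04e-12%. Libraries were directional, made after depletion of ribosomal RNA and read with 50 bases. The submitters' processing notes name FastQC, STAR, HTSeq, DESeq2, DESeq, HOMER and the build mm10, without versions or roles. Whether counting used strand is not given in the sources used here.

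Counts were analysed in R 4.3.3 with edgeR 4.0.16, and in Python 3.11.15. Genes were kept by filterByExpr (minimum count 10), which left 13943 of 24562, and were scaled by TMM. All 4 cohorts entered 1 robust quasi-likelihood model, with 6 pairwise comparisons and Benjamini-Hochberg adjustment over all genes tested. A gene was called when it changed 1.5-fold or more with an adjusted p no higher than 0.05, the criteria of the study. Standard errors were approximated from the size of the log2 fold change and the square root of its F statistic. They rest on 1 estimate of the spread of a gene over all 4 cohorts. Log2 CPM used a prior count of 2. Counts came without molecular identifiers, so counting error is a lower limit of their error, and p-values measure the spread between these pools, which the study describes as independent.

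Neighbours were the 25 genes of the count table nearest on each side in RefSeq GRCm38.p6, in which 24468 genes matched. Named were the pair, neighbours called or raised at PND 16, the nearest on each side, family and partner genes that reached 1 CPM in a cohort mean (up to 10 a list) or were called, and the 5 genes most like each of the pair. Hist1h3e, Hist1h3g, Hist1h4c, Hist1h3c, Hist1h2bg, Zfp322a, Abt1, Vmn1r212, Vmn1r211, Cd274 and Cd276 were added after their values were seen. So were the single granulosa and cumulus markers. The pair, the lists and the tests were chosen with earlier results of these data known. Same-numbered pools of different cohorts did not deviate together (mean r from -0.25 to 0.0397), so the numbers were not treated as pairs. Alternatives were DESeq2 1.42.0, limma 3.58.1 on the deposited log2 values, other scalings and filters, fits of only the cohorts compared, a replicate block, other call rules and numbers of neighbours, and leaving out each pool.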

Additional observations from a re-analysis of the deposited data

How the results depend on the processing

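No log2 fold change of Btn1a1 or Btn2a2 changed direction under any alternative. Apart from fits that leave out a pool, 169 of the values of the pair and of the counts of called genes stayed within their limit and 23 moved. For Btn1a1 in PND 40 vs. PND 16 small (-2.62), limma on the deposited log2 values gave -5.26 and the difference of mean log2 CPM with a prior count of 0.5 gave -5.30. These alternatives average log2 values over the pools, while the edgeR fold, 0.163, equals the ratio of the mean CPM. With a prior count of 2, the log2 CPM of Btn1a1 was -1.54, 5.74 and 0.736 in the pools of PND 40. It was 6.77, 6.91 and 6.79 in those of PND 16 small. How far the averaging of log2 values accounts for the gap was not tested.

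The number of neighbours called is small and moved with the settings. In PND 16 large vs. PND 13 (1 called), DESeq2 gave 2, limma 2, a fit of only these cohorts 3, 10 genes on each side 0 and 50 genes on each side 3. In PND 40 vs. PND 13 (3 called), a minimum count of 50 gave 1 and DESeq2 5, and in PND 16 large vs. small (0 called) DESeq2 gave 1. In PND 40 vs. PND 16 small (1 called), limma, only the cohorts compared and no fold criterion each gave 2, and 50 genes on each side 4. In PND 40 vs. PND 16 large (1 called), scaling by total count, a minimum count of 50 and DESeq2 each gave 2, only the cohorts compared 5 and 50 genes on each side 4. For the family lists (0 called), no filter and fits of only the cohorts compared each gave 1, Cd276 in the former and Cd274 in the latter, and for the milk fat globule and lipid droplet lists (4 called) no fold criterion gave 8.

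With the replicate number as a block, although the numbers do not pair the pools, 2 neighbours were called in PND 40 vs. PND 16 small. Over all genes the block took the calls of PND 16 small vs. PND 13 from 52 to 10, of which 9 were shared, and in the other comparisons the largest relative loss was from 510 to 392, in PND 40 vs. PND 16 large. Single genes lost 7 calls in all: Hist1h2bg in PND 40 vs. PND 13 with no filter, limma and the block, Plin2 in PND 40 vs. PND 13 with the block and vs. PND 16 small with only these cohorts, and Plin3 in PND 16 large vs. PND 13 with only these cohorts and vs. PND 16 small with the block.

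Leaving out 1 pool at a time, Btn1a1 ranged from 6.98 to 8.51 in PND 16 small vs. PND 13, 7.59 to 9.12 in PND 16 large vs. PND 13, 0.379 to 0.803 in PND 16 large vs. small, 0.715 to 5.90 in PND 40 vs. PND 13, -6.88 to -2.04 in PND 40 vs. PND 16 small and -7.49 to -2.65 in PND 40 vs. PND 16 large. Btn2a2 ranged from 1.57 to 2.12, 2.04 to 2.54, 0.264 to 0.709, 0.159 to 0.822, -1.71 to -1.02 and -2.13 to -1.48 in the same comparisons. The neighbours called ranged from 0 to 0, 0 to 2, 0 to 1, 1 to 7, 1 to 2 and 1 to 2, the family genes called in any comparison from 0 to 1, and the milk fat globule and lipid droplet genes from 3 to 6. The 7 neighbours called in PND 40 vs. PND 13 came without pool 2 of PND 13. Counts of 1 to 27 for Btn1a1 at PND 13 limit the precision of its ratios to that cohort.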

Other observations

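The other 10 genes whose 6 pools of PND 16 all lay above the 6 other pools, with the lower PND 16 mean at least 1.5 times the higher of the other means, were Eya4, Susd2, Gpr135, Pak7, Cdh7, Prl8a2, Nlgn1, Nrcam and the transcripts 7420700N18Rik and 5530601H04Rik. They were named after their values were seen. The most abundant were Nrcam and Nlgn1, neuronal cell adhesion genes, and Pak7, a p21-activated kinase gene. Nrcam had mean levels of 62.8, 107, 113 and 59.1 CPM at PND 13, in PND 16 small, in PND 16 large and at PND 40, Nlgn1 of 47.7, 98.4, 81.7 and 43.8 CPM, and Pak7 of 48.0, 91.9, 106 and 49.0 CPM. Eya4, a transcription cofactor and phosphatase gene, had 1.86, 4.32, 4.59 and 2.02 CPM. The ratio of the lower PND 16 mean to the higher other mean was between 1.71 and 2.24 in these 10 genes, beside 6.14 for Btn1a1 and 2.47 for Btn2a2. Pool 2 of PND 40, the highest of its cohort for both butyrophilins, was the highest of its cohort for 50% of these 10 genes and for 30.5% of all genes tested.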
